A study of Mus musculus with 2 samples.

Results

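Collagen genes were compared across 5 classes of lung stromal cells and between mice on a high fat diet (HFD) and mice on normal chow (NC). The members are the 41 genes, of 21014 in both tables, whose symbol has the form of Col, a number, a and a number. They comprise 11 fibrillar collagens, 6 chains of the basement membrane collagen IV, 5 chains of type VI, 9 FACIT collagens (fibril-associated collagens with interrupted triple helices), 4 transmembrane collagens and 6 others. The HFD group was 1 library of C57Bl/6J lung stroma taken after 16 weeks of the diet, and the NC group was 1 such library after 16 weeks of chow. Both are of the same strain, with no allele or further agent in the labels. Age, sex and the number of animals behind each library are not given in the sources used here, and fibroblastic cells had been isolated from the rest of the lung. With 1 library per group nothing could be tested, and every interval below covers counting error only.

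Collagens are triple helices of 3 chains that are hydroxylated and folded in the endoplasmic reticulum, exported, trimmed and crosslinked outside the cell. Fibrillar collagens give lung interstitium and airway walls their tensile strength, FACIT collagens sit on the surface of those fibrils, collagen IV forms the sheet of basement membranes, and collagen VI forms beaded microfibrils beside them. Fibroblasts make most of the fibrillar collagen of the lung, and smooth muscle and pericytes contribute to vascular and airway basement membranes.

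The 6 collagen IV genes lie in head-to-head pairs. By the GENCODE annotation of GRCm38, an older build than the mm39 of the files, Col4a1 and Col4a2 start on opposite strands. Their transcripts overlap by 22 bases, those of Col4a3 and Col4a4 start 71 bases apart, and those of Col4a5 and Col4a6 start 1308 bases apart. The RefSeq windows printed below come from another annotation, and their coordinates give another distance between the starts of Col4a5 and Col4a6. Sequences before the start are printed from RefSeq promoter windows (GRCm38.p6, in which 33 of the 41 members were found) for genes whose class profiles or HFD over NC ratios are set side by side below. Capitals mark CCAAT and TATAAA, searched on both strands (as ATTGG and TTTATA on the other). They do not overlap here. Of 32851 windows of 250 bases, 33.85% held CCAAT and 12.4% held TATAAA on either strand. The stretch between the Col4a4 and Col4a3 starts (chr1:82586850-82586920, minus strand, read towards Col4a4) is shown because both genes were highest in the same class:
Col4a4: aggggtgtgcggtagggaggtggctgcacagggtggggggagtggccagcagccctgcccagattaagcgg
The 250 bases before Col4a5 (chrX:141475169-141475418, plus strand) and before Col4a6 (chrX:141474077-141474326, minus strand) are shown for the same reason:
Col4a5: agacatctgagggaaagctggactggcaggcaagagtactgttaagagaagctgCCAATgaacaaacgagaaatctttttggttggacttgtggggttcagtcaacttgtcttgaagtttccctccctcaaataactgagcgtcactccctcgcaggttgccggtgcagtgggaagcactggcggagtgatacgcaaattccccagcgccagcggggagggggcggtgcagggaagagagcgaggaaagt
Col4a6: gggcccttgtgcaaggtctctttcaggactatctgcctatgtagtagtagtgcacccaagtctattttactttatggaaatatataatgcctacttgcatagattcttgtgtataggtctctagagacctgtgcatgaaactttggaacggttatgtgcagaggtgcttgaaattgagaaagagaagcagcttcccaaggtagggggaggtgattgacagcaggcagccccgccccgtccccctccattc
The 250 bases before Col1a2 (chr6:4505368-4505617, plus strand) and Col3a1 (chr1:45311288-45311537, plus strand) belong to fibrillar genes with the same highest class but unlike HFD over NC ratios:
Col1a2: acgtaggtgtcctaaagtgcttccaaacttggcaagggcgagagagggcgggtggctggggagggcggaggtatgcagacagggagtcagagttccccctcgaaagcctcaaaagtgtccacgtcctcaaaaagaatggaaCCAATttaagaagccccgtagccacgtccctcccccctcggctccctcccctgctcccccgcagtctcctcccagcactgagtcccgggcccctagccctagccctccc
Col3a1: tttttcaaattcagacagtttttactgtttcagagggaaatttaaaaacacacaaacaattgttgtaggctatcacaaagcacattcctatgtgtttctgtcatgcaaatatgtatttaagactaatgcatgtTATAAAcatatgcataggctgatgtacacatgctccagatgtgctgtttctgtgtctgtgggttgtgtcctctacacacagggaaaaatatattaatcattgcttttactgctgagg
Col1a2 and Col4a5 each held 1 CCAAT, and Col3a1 held 1 TATAAA that began 117 bases before the start. Neither motif was found in these windows of Col4a6 or between Col4a4 and Col4a3, a stretch too short to set against the share of 250-base windows.

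The HFD library kept 6089 cells with 71014948 recovered counts and the NC library 8140 cells with 69940474. Median counts per cell were 10045 in HFD and 7524 in NC, and they were higher in HFD in each class, by class between 6617 and 19714.5 in HFD and between 4816 and 15459.5 in NC. Whether this gap had a part in the ratios was not tested. The deposited annotation names Asc1 fibroblasts (3092 HFD and 3999 NC cells), Gas6 fibroblasts (1095 HFD and 2002 NC), Pi16 fibroblasts (796 HFD and 1222 NC), myofibroblasts (510 HFD and 667 NC) and pericytes (596 HFD and 250 NC). Pi16, Slc7a10 (the transporter asc-1) and Hhip were highest in the Pi16, Asc1 and myofibroblast classes of both libraries, whereas Gas6 itself was at 250.3 CPM in HFD and 309 CPM in NC in its own class and at 279 CPM in HFD and 277 CPM in NC in Pi16 fibroblasts. In the class labelled pericytes, the smooth muscle genes Acta2 (12769 CPM in HFD, 12126 in NC) and Myh11 (2878 in HFD, 2369 in NC) stood high. The 8 pericyte markers also summed highest there, to 974 CPM in HFD and 704 in NC (842 in HFD and 507 in NC in myofibroblasts), with Cspg4 at 134 CPM in HFD and 99.8 in NC, but Higd1b was at 3.86 CPM in HFD and 2.04 in NC, against 69.0 in HFD and 26.2 in NC in myofibroblasts. With markers of both types in it, the class is called by its label. Over the pooled fibroblast classes the 7 epithelial markers summed to 39.0 CPM in HFD and 27.5 in NC with Epcam and Sftpc at 0, the 6 immune markers to 33.3 in HFD and 52.9 in NC with Ptprc and Cd3e at 0, the 5 endothelial markers to 0.467 in HFD and 1.36 in NC with Pecam1 at 0 in both, and the 5 mesothelial markers to 4.14 in HFD and 4.30 in NC with Msln at 0. The libraries share 17 cell barcodes, 16 of them among kept cells.

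Levels are counts scaled to the same total (CPM) of the summed counts of a class, which are not corrected for gene length, so each gene is compared with itself only. The pooled comparison joins the Asc1, Gas6, Pi16 and myofibroblast classes. A gene counted as measured in a comparison when it had at least 50 effective counts over both libraries (counts divided by 4.85 for HFD and by 3.98 for NC, because cells that held a rare gene tended to hold several counts of it), and as higher or lower by size when the HFD over NC ratio was at least 1.5 or at most 0.667. Ranges that follow a ratio are its 95% counting interval. Of the 41 members, 30 were measured somewhere, 29 of them in the pooled comparison, and 20 reached at least 50 CPM in at least 1 class. The classes may have been drawn from these same transcripts, so the class profiles are descriptions.

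In pooled fibroblasts 22 of 29 measured collagens were lower in HFD and 7 were higher. Their median log2 ratio was −0.20 (range −0.72 to 0.30), against 0.02 over the 13422 genes measured, of which 46.3% were below a ratio of 1. The counting interval of the ratio lay below 1 for 15 of the 29 collagens and above 1 for 3. Of the 13422 genes measured, it lay below 1 for 2246 and above 1 for 2624. Marker sums of fibroblast classes also differed between the libraries. Over pooled fibroblasts the 8 adventitial markers summed to 1376 CPM in HFD and 1756 in NC. The 8 alveolar markers summed to 9278 CPM in HFD and 7307 in NC, and the 6 myofibroblast markers to 1380 in HFD and 1092 in NC. Within classes the adventitial sum was 634 CPM in HFD and 883 in NC in Asc1 fibroblasts, 1213 in HFD and 1640 in NC in Gas6 fibroblasts, 4500.4 in HFD and 4906 in NC in Pi16 fibroblasts, 346 in HFD and 452 in NC in myofibroblasts, and 150.4 in HFD and 249 in NC in the class labelled pericytes. The alveolar sum was 12398 CPM in HFD and 10213 in NC in Asc1, 9173 in HFD and 6974 in NC in Gas6 and 3496 in HFD and 2874 in NC in Pi16 fibroblasts. No marker of these lists was at 0 in both libraries, save Dpp4 in the class labelled pericytes. The part of the markers in the collagen ratios was not tested. Few collagens reached the size limit: 0 were higher by size, against 5.45% of all genes. Lower by size were 2 (6.90% of the measured members), against 4.75% of all genes. The count by size was thus near that of other genes, while the shift of the median was made of many small differences. With the 4 classes weighted equally, or without the Asc1 class, 0 were lower by size. Over the alternatives run the median of all collagens lay between −0.36 and −0.07. By type the median log2 ratio was −0.33 for 7 fibrillar collagens, −0.28 for 4 FACIT collagens and −0.25 for 6 others. It was −0.14 for 3 type VI chains, −0.07 for 6 type IV chains and 0.22 for 3 transmembrane collagens. Weighted equally over the 4 classes, it was −0.10 for fibrillar collagens, −0.07 for type VI and 0.09 for type IV chains. Gas6 fibroblasts made up 1095 of the 5493 HFD cells and 2002 of the 7890 NC cells of the pool. The part of such class shares in the pooled ratios was not tested. The transmembrane collagens were the one type with all measured members above 1.

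**Figure D1:**
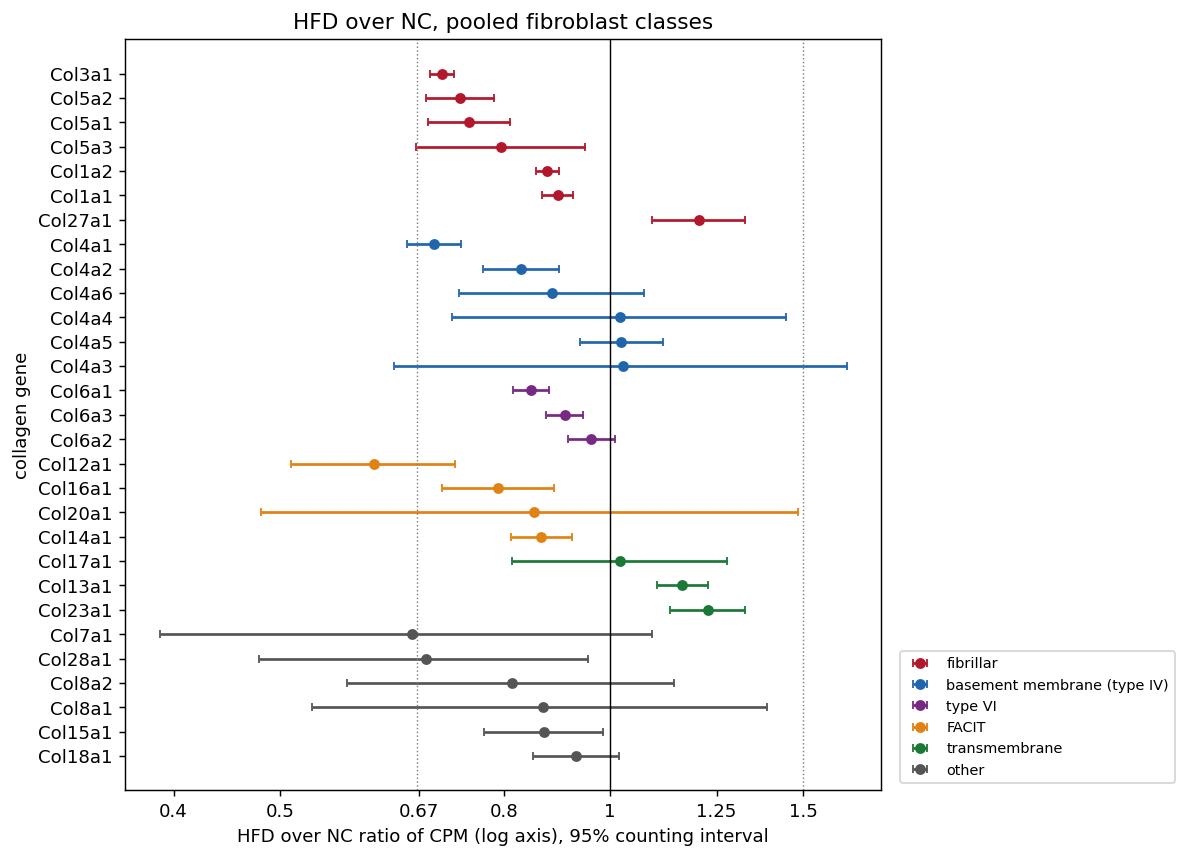
HFD over NC ratio of CPM (log axis) for the 29 collagens measured in pooled fibroblast classes, by type, with 95% counting intervals, from 1 library per group. Dotted lines mark the size limits of 0.667 and 1.5, and 22 of the 29 points lie left of 1.

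Long transcripts can differ from short ones between libraries, so length was compared. The longest annotated transcripts of the 29 collagens measured 3162 to 11511 nucleotides (median 5930, against 3130 over all genes with a length). The 6296 measured genes within that range had a median log2 ratio of 0.01, and 49.1% of them were below 1. Among genes of that length at 50 CPM or more, the median was −0.02 for 1100 genes and −0.17 for 16 collagens. Whether length had a part in the collagen ratios was not tested.

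Type I collagen, a heterotrimer of the products of Col1a1 and Col1a2 and the main fibril former of the interstitium, had the same class order for both chains in both libraries. In HFD, Col1a1 was at 995 CPM in Pi16 fibroblasts, 488 in Gas6 fibroblasts, 361 in Asc1 fibroblasts, 280.1 in the class labelled pericytes and 218 in myofibroblasts. In NC its levels in the same classes were 1007, 569, 387, 299 and 236 CPM. Pi16 fibroblasts, a class known from the adventitia of vessels and airways, stood 2.04-fold over the next class in HFD and 1.77-fold in NC. Col1a2 ranged between 309 CPM in myofibroblasts and 1703 in Pi16 fibroblasts in HFD, and between 366 and 1678 CPM in the same classes in NC. Over pooled fibroblasts Col1a1 was at 487 CPM in HFD and 544 CPM in NC, a ratio of 0.895 (0.866 to 0.926), and Col1a2 at 873 CPM in HFD and 996 CPM in NC, a ratio of 0.877 (0.855 to 0.898). Both chains were lower in HFD in the Asc1 and Gas6 classes with intervals below 1, and in Pi16 fibroblasts the ratios were 0.988 (0.928 to 1.05) for Col1a1 and 1.01 (0.968 to 1.06) for Col1a2.

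Col3a1, whose product forms type III collagen and joins type I in mixed fibrils, differed more between the libraries. In HFD it was at 1597 CPM in Pi16 fibroblasts, 907 in Gas6 fibroblasts, 820.5 in myofibroblasts, 527 in the class labelled pericytes and 443 in Asc1 fibroblasts. The NC levels in those classes were 1919, 1337, 1095, 725 and 608 CPM. It was lower in HFD in all 5 classes, and the interval lay below 1 in each: the ratio was 0.678 (0.652 to 0.705) in Gas6, 0.728 (0.667 to 0.794) in the class labelled pericytes, 0.729 (0.693 to 0.767) in Asc1, 0.749 (0.675 to 0.831) in myofibroblasts and 0.832 (0.793 to 0.872) in Pi16 fibroblasts. No other collagen had an interval below 1 in all 5 classes.

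Type V collagen, which nucleates type I fibrils and limits their width, was lower in HFD in the same direction for its 3 chains. Col5a1 was at 69.9 CPM in HFD and 94.0 CPM in NC over pooled fibroblasts, a ratio of 0.744 (0.683 to 0.810). Col5a2 was at 99.99 CPM in HFD and 137 CPM in NC, a ratio of 0.730 (0.680 to 0.783), and Col5a3 at 16.9 CPM in HFD and 21.3 CPM in NC, a ratio of 0.795 (0.666 to 0.949). In myofibroblasts Col5a1 was at 66.4 CPM in HFD and 113 CPM in NC and Col5a2 at 101 CPM in HFD and 158 CPM in NC, with ratios of 0.587 (0.407 to 0.837) and 0.637 (0.473 to 0.853). These were the 2 of 15 measured collagens lower by size in that class (13.3%), against 7.94% of all genes, and its 510 HFD and 667 NC cells make the intervals wide. Within each fibroblast class the log2 ratios of Col5a1 and Col5a2 lay within 0.12 of each other. In Pi16 fibroblasts, where both chains were highest, the ratios were 0.892 (0.753 to 1.06) for Col5a1 and 0.899 (0.770 to 1.05) for Col5a2.

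Col27a1, a fibrillar collagen known from cartilage and developing tissues, went the other way. It was at 65.3 CPM in HFD and 54.2 CPM in NC over pooled fibroblasts, a ratio of 1.20 (1.09 to 1.33), the one fibrillar member above 1. In HFD it was at 86.4 CPM in myofibroblasts, 73.6 in Gas6, 62.9 in Asc1 and 45.2 in Pi16 fibroblasts, and in NC at 57.1, 58.9, 55.5 and 36.8 CPM in the same classes. HFD was higher in all 4 fibroblast classes, with an interval above 1 in Gas6 fibroblasts (1.251, 1.07 to 1.46) and myofibroblasts (1.51, 1.02 to 2.25). The value in myofibroblasts was the 1 collagen higher by size in that class (6.67% of measured members), against 7.62% of all genes. In the class labelled pericytes Col27a1 was at 22.9 CPM in HFD and 29.0 CPM in NC, a ratio of 0.790 (0.508 to 1.249).

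**Figure D2:**
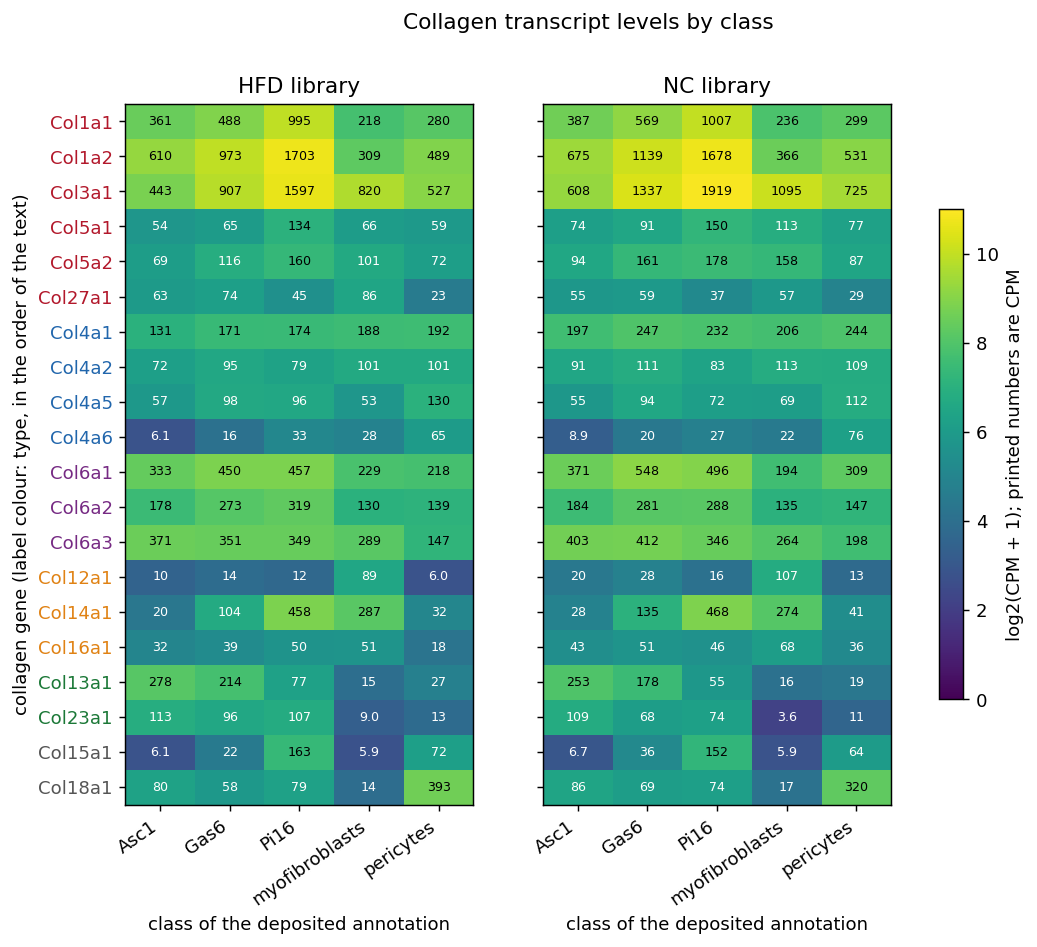
Level of the 20 collagens that reached 50 CPM in at least 1 class, as log2(CPM + 1) by colour and CPM by printed number, in each class of the HFD library (left) and NC library (right). Of the 20 genes, 15 had the same highest class in both libraries and 11 the same order of all 5 classes.

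Among the 20 collagens with at least 50 CPM, 15 had the same highest class in both libraries and 11 the same order of all 5 classes. The highest class was the Pi16 class for 9 genes in HFD and 8 in NC, the class labelled pericytes for 5 in HFD and 3 in NC, myofibroblasts for 3 in each, Asc1 fibroblasts for 3 in HFD and 2 in NC, and Gas6 fibroblasts for 0 in HFD and 4 in NC. The 5 genes with another highest class in each library were Col27a1, Col4a1, Col4a2, Col6a1 and Col6a3, and their highest class stood at most 1.17-fold over the next in HFD and at most 1.11-fold in NC.

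The ubiquitous pair of collagen IV, Col4a1 and Col4a2, was spread evenly over the classes. Col4a1 lay between 131 CPM in Asc1 fibroblasts and 192 CPM in the class labelled pericytes in HFD, and between 197 CPM in Asc1 and 247 CPM in Gas6 fibroblasts in NC. It was at 154 CPM in HFD and 223 CPM in NC in pooled fibroblasts, a ratio of 0.691 (0.653 to 0.731). In Asc1 fibroblasts the ratio was 0.665 (0.606 to 0.729), in Gas6 0.691 (0.631 to 0.756), in Pi16 0.752 (0.651 to 0.866), in the class labelled pericytes 0.786 (0.678 to 0.914) and in myofibroblasts 0.910 (0.723 to 1.15). All 5 ratios were below 1, and all but the one of myofibroblasts had intervals below 1. Col4a2, its partner chain in the same trimer, was at 82.4 CPM in HFD and 99.3 CPM in NC over pooled fibroblasts, a ratio of 0.830 (0.766 to 0.899). The pair starts within a shared stretch of DNA. Col4a1 had the lower log2 ratio by 0.27 in pooled fibroblasts and by 0.24 to 0.34 in the Asc1, Gas6, Pi16 and pericyte-labelled classes, while in myofibroblasts the chains lay within 0.02 of each other. The last kilobase of Col4a1 overlaps an annotated gene on the opposite strand, as do those of Col4a3, Col9a3 and Col18a1. Whether counting used the strand is not given in the sources used here.

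Col4a3 and Col4a4, chains of the collagen IV network of glomerular and alveolar basement membranes, were low but had one class in common. Col4a3 was at 10.5 CPM in HFD and 7.29 CPM in NC in Pi16 fibroblasts, and the other 4 classes were at 0.303 to 3.10 CPM in HFD and 0.454 to 3.16 CPM in NC. Col4a4 was at 19.4 CPM in HFD and 13.9 CPM in NC in Pi16 fibroblasts, and the other classes were at 1.36 to 2.63 CPM in HFD and 1.13 to 4.01 CPM in NC. Both genes were thus highest in the Pi16 class in both libraries, 3.40-fold over the next class in HFD and 2.30-fold in NC for Col4a3, and 7.37-fold in HFD and 3.48-fold in NC for Col4a4. They rest on few cells: Col4a3 had counts in 38 HFD and 59 NC cells, and Col4a4 in 93 HFD and 122 NC cells. Over pooled fibroblasts the HFD over NC ratios were 1.03 (0.635 to 1.64) for Col4a3 and 1.02 (0.717 to 1.45) for Col4a4, wide intervals on both sides of 1.

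Col4a5 and Col4a6, the chains found together in smooth muscle basement membranes, were both highest in the class labelled pericytes. Col4a6 was at 64.7 CPM in HFD and 76.2 CPM in NC there, at 33.1 CPM in HFD and 26.8 CPM in NC in Pi16 fibroblasts, and lowest in Asc1 fibroblasts at 6.06 CPM in HFD and 8.90 CPM in NC. Col4a5 had a flatter profile, with 129.9 CPM in HFD and 112 CPM in NC in the class labelled pericytes and 56.7 CPM in HFD and 55.0 CPM in NC in Asc1 fibroblasts. In myofibroblasts Col4a5 was at 53.5 CPM in HFD and 69.3 CPM in NC. Between the libraries, Col4a5 was at 76.0 CPM in HFD and 74.3 CPM in NC over pooled fibroblasts (ratio 1.02, 0.938 to 1.12) and Col4a6 at 14.8 CPM in HFD and 16.7 CPM in NC (ratio 0.884, 0.727 to 1.07). Single classes gave one interval beyond 1 among the 2 genes, for Col4a5 in Pi16 fibroblasts at 1.35 (1.08 to 1.68).

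Collagen VI is assembled from the chains of Col6a1, Col6a2 and Col6a3. In pooled fibroblasts Col6a1 was at 384 CPM in HFD and 453 CPM in NC (ratio 0.847, 0.816 to 0.879), Col6a2 at 227 CPM in HFD and 237 CPM in NC (0.961, 0.914 to 1.01) and Col6a3 at 356 CPM in HFD and 391 CPM in NC (0.909, 0.874 to 0.945). All 3 chains were lower in HFD by small amounts, and the interval of Col6a2 reached past 1. Class levels varied 2.10-fold to 2.52-fold between the highest and lowest class in HFD and 2.08-fold to 2.82-fold in NC. The largest HFD over NC differences lay in the class labelled pericytes, where Col6a1 was at 218 CPM in HFD and 309 CPM in NC (0.706, 0.617 to 0.809) and Col6a3 at 147 CPM in HFD and 198 CPM in NC (0.741, 0.627 to 0.877). In Pi16 fibroblasts the ratios of the 3 chains were 0.923, 1.11 and 1.01, all with intervals that include 1. Col6a5 and Col6a6, chains that can replace the product of Col6a3, were not measured, with 24 and 76 counts in HFD and 62 and 75 counts in NC.

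The FACIT collagen Col12a1, whose product bridges fibrils in tissues under load, was highest in myofibroblasts. It was at 89.0 CPM in HFD and 107 CPM in NC in myofibroblasts, 6.53-fold over the next class in HFD and 3.84-fold in NC. In the other classes it was at 5.98 to 13.6 CPM in HFD and at 13.2 to 27.8 CPM in NC. Over pooled fibroblasts it was at 16.5 CPM in HFD and 27.2 CPM in NC, a ratio of 0.609 (0.512 to 0.721), 1 of the 2 collagens lower by size. The ratio was below 1 in all 4 classes where Col12a1 was measured, and the interval lay below 1 in 2 of them. Asc1 fibroblasts were at 10.4 CPM in HFD and 20.1 CPM in NC (0.516, 0.371 to 0.711). Gas6 fibroblasts were at 13.6 CPM in HFD and 27.8 CPM in NC (0.490, 0.356 to 0.666), and both classes were lower by size. In myofibroblasts the ratio was 0.834 (0.597 to 1.16), and in Pi16 fibroblasts 0.741 (0.414 to 1.29), with intervals that include 1. The differences between these ratios were not tested.

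Col14a1, whose product undulin binds fibril surfaces through decorin, had the widest span across classes among the measured FACIT collagens. In HFD it was at 458 CPM in Pi16 fibroblasts, 287 in myofibroblasts, 104 in Gas6 fibroblasts, 32.0 in the class labelled pericytes and 19.8 in Asc1 fibroblasts. In NC those levels were 468, 274, 135, 40.8 and 28.3 CPM. The order of the 5 classes was the same in both libraries, and the highest stood 23.2-fold over the lowest in HFD and 16.6-fold in NC. Where the gene was high the libraries were close (0.977, 0.891 to 1.07, in Pi16 fibroblasts; 1.05, 0.867 to 1.27, in myofibroblasts), and where it was lower HFD was below NC (0.772, 0.686 to 0.868, in Gas6; 0.700, 0.546 to 0.893, in Asc1 fibroblasts). Col16a1, a FACIT collagen that binds integrins, was at 37.9 CPM in HFD and 47.9 CPM in NC over pooled fibroblasts, a ratio of 0.791 (0.703 to 0.889). In the class labelled pericytes it was at 17.7 CPM in HFD and 36.3 CPM in NC, a ratio of 0.488 (0.314 to 0.761). It was 1 of 2 among 19 measured collagens lower by size in that class (10.5%, with Col2a1, described below), against 6.77% of all genes, and 0 were higher by size, against 11.4%. Col20a1 was measured only in pooled fibroblasts, at 1.89 CPM in HFD and 2.21 CPM in NC (0.852, 0.480 to 1.48).

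Transmembrane collagens are anchored in the plasma membrane and can be shed. Col13a1, known from cell adhesions and the neuromuscular junction, separated the alveolar classes from the rest. It was at 278 CPM in Asc1, 214 in Gas6, 77.3 in Pi16, 26.7 in the class labelled pericytes and 14.9 in myofibroblasts of the HFD library. In the NC library it was at 253, 178, 55.0, 19.3 and 16.1 CPM in those classes. The order was the same in both, with a span of 18.6-fold in HFD and 15.8-fold in NC. The deposited tables also carry earlier class names, 1 of which contains Col13a1, so this gene was in use when cells were named and its class profile is no finding. In HFD that name was spread over all 5 classes, on 4.31% to 15.5% of the cells of each. In NC it was on 76.5% of Gas6 cells, 16.2% of Pi16 cells and at most 4.8% of the cells of any other class. Other earlier names were scattered in HFD too. The Acs1+ name was on 50.3% of Asc1, 45.6% of Pi16 and 39.9% of pericyte-labelled cells in HFD. In NC it was on 95.05%, 7.77% and 0% of the cells of those classes. Whether the earlier names of the HFD library belong to the cells they stand beside was not tested. Earlier names were not used for grouping. After each cell was thinned to 2000 counts (3 HFD and 24 NC Asc1 cells were shallower and left out), 29.2% of HFD and 26.4% of NC Asc1 cells held a count of Col13a1, against 1.96% of HFD and 1.80% of NC myofibroblasts. Unthinned, the shares were 46.0% in HFD and 41.8% in NC for Asc1 fibroblasts.

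HFD was above NC for Col13a1 in each class in which it was measured. The ratio was 1.10 (1.02 to 1.18) in Asc1, 1.20 (1.10 to 1.31) in Gas6, 1.40 (1.10 to 1.80) in Pi16 fibroblasts and 1.39 (0.845 to 2.36) in the class labelled pericytes. Over pooled fibroblasts it was 1.16 (1.10 to 1.23). Col23a1, a second transmembrane member, was at 99.9 CPM in HFD and 81.4 CPM in NC over pooled fibroblasts, a ratio of 1.23 (1.13 to 1.33). Its class values were 113 CPM in HFD and 109 CPM in NC in Asc1 (1.04, 0.931 to 1.16), 95.7 CPM in HFD and 67.9 CPM in NC in Gas6 (1.41, 1.23 to 1.62) and 107 CPM in HFD and 74.3 CPM in NC in Pi16 fibroblasts (1.44, 1.17 to 1.78). Myofibroblasts and the class labelled pericytes were at 9.01 and 13.3 CPM in HFD and at 3.57 and 10.9 CPM in NC. Neither gene reached the size limit in a class where it was measured. Col17a1, known from the hemidesmosomes of epithelia, was at 11.6 CPM in HFD and 11.4 CPM in NC (1.02, 0.813 to 1.28). It was highest in Asc1 fibroblasts at 15.04 CPM in HFD and 16.0 CPM in NC. In that class the 7 epithelial markers summed to 35.4 CPM in HFD and 31.0 in NC, with Epcam and Sftpc at 0. Whether epithelial RNA had a part in the Col17a1 counts was not tested.

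**Figure D3:**
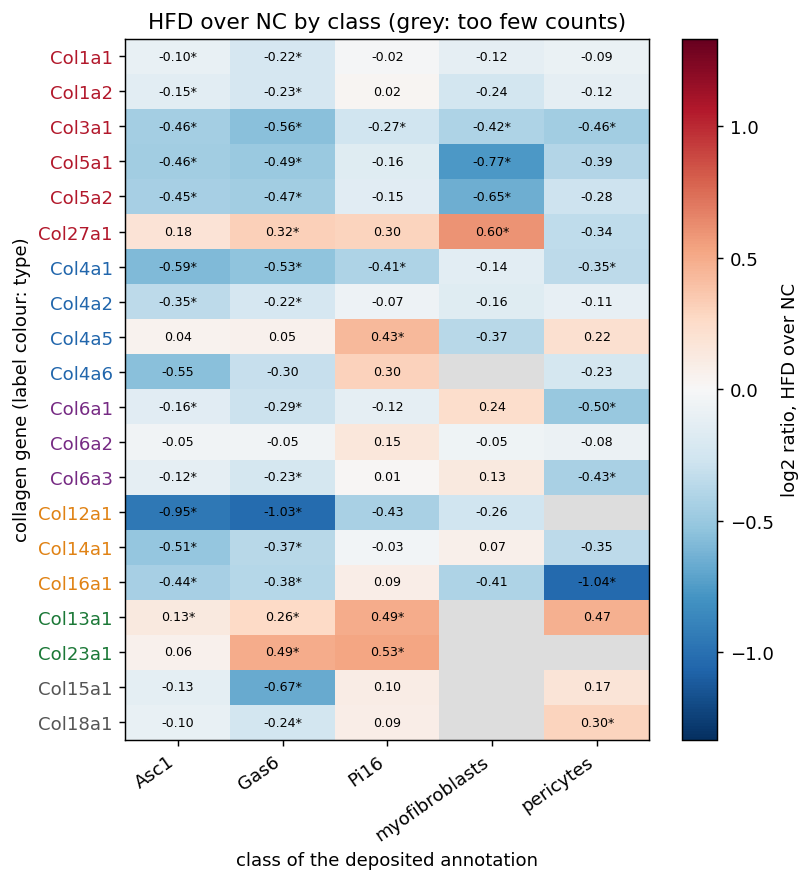
Log2 of the HFD over NC ratio of CPM for the 20 collagens with at least 50 CPM, in each class, from 1 library per group; red is higher and blue lower in HFD, grey cells had under 50 effective counts, and an asterisk marks a 95% counting interval that leaves out a ratio of 1. Col3a1 is blue in all 5 columns, and no value in the Pi16 column is below −0.43.

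Seen class by class, the collagens of Pi16 fibroblasts were balanced between the libraries and those of the other classes leaned low in HFD. The median log2 ratio was 0.02 over 22 measured collagens in Pi16 fibroblasts (10 below a ratio of 1; −0.02 with TMM scaling and −0.04 with median of ratios scaling), −0.16 over 23 in Asc1 fibroblasts (19 below), −0.29 over 24 in Gas6 fibroblasts (19 below), −0.16 over 15 in myofibroblasts (11 below) and −0.28 over 19 in the class labelled pericytes (15 below; 0.04 without the 10 cells with the most counts of each gene). Over all genes measured in each class the medians lay between −0.0043 and 0.083. Below a ratio of 1 were 50.5% of them in Asc1, 47.5% in Gas6 and 48.5% in Pi16 fibroblasts. The share was 49.7% in myofibroblasts and 41.3% in the class labelled pericytes. Leaving out 10 cells takes a larger share of the 250 NC than of the 596 HFD cells of the class labelled pericytes. The part of this in the median of that class was not tested. By size, 2 of 23 collagens were lower in Asc1 fibroblasts (Col4a1 and Col12a1, 8.70%, against 5.46% of all genes) and 2 of 24 in Gas6 fibroblasts (Col12a1 and Col15a1, 8.33%, against 5.91%). In Pi16 fibroblasts 0 were lower by size, against 5.88%. In these 3 classes 0 were higher by size, against 4.88%, 6.08% and 5.7% in Asc1, Gas6 and Pi16 fibroblasts. Whether Pi16 fibroblasts differ from the other classes was not tested.

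The multiplexins Col15a1 and Col18a1 encode basement membrane proteoglycan cores that release endostatin-like fragments. Col18a1 was at 393 CPM in HFD and 320.0 CPM in NC in the class labelled pericytes, 4.90-fold over the next class in HFD and 3.72-fold in NC. Asc1 fibroblasts were at 80.1 CPM in HFD and 85.9 CPM in NC, Pi16 at 78.6 CPM in HFD and 73.9 CPM in NC, Gas6 at 58.0 CPM in HFD and 68.7 CPM in NC and myofibroblasts at 14.4 CPM in HFD and 16.9 CPM in NC. In cells thinned to 2000 counts, 42.8% of HFD and 40.4% of NC cells of the class labelled pericytes held a count, against 1.37% of HFD and 2.10% of NC myofibroblasts (unthinned 78.2% in HFD and 71.2% in NC for that class).
Between the libraries, Col18a1 was higher in HFD in the class labelled pericytes (1.23, 1.09 to 1.39) and lower in HFD in Gas6 fibroblasts (0.845, 0.719 to 0.991), and over pooled fibroblasts the ratio was 0.931 (0.851 to 1.02). With the class labelled pericytes added to the pool, which brings 596 HFD and 250 NC cells, the Col18a1 ratio was 1.45. Its last kilobase overlaps Slc19a1 on the opposite strand.

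Col15a1 was highest in Pi16 fibroblasts at 163 CPM in HFD and 152 CPM in NC and second in the class labelled pericytes at 72.2 CPM in HFD and 64.2 CPM in NC. Gas6 fibroblasts were at 22.3 CPM in HFD and 35.6 CPM in NC, Asc1 at 6.10 CPM in HFD and 6.66 CPM in NC and myofibroblasts at 5.91 CPM in HFD and 5.94 CPM in NC. The order was the same in both libraries, and the Pi16 class stood 2.25-fold over the next in HFD and 2.37-fold in NC. The HFD over NC ratio was 0.627 (0.486 to 0.802) in Gas6 fibroblasts, lower by size, against 1.07 (0.914 to 1.26) in Pi16 fibroblasts and 1.13 (0.854 to 1.498) in the class labelled pericytes. The remaining measured members were low. Col28a1, described in Schwann cell basement membranes, was highest in Gas6 fibroblasts at 9.96 CPM in HFD and 12.6 CPM in NC and had a pooled ratio of 0.679 (0.478 to 0.954). Col7a1, the anchoring fibril collagen, had a pooled ratio of 0.660 (0.389 to 1.09), lower by size, but 10 cells held 56.4% of its counts in HFD and 43.3% in NC. Col8a1 and Col8a2, short-chain collagens of vessel walls and corneal membranes, had pooled ratios of 0.868 (0.535 to 1.39) and 0.814 (0.576 to 1.14). For Col8a1, 10 cells held 68% of the pooled counts in HFD and 45.9% in NC.

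The cartilage collagens Col2a1, Col9a1, Col9a2, Col9a3, Col11a1 and Col11a2 were concentrated in a few cells. They summed to 114 counts in HFD and 680 in NC over all kept cells. Col2a1 had 13 counts in HFD and 227 in NC, Col11a1 31 in HFD and 142 in NC, and Col11a2 27 in HFD and 122 in NC. The type IX chains, FACIT partners of type II fibrils, had 7 counts in HFD and 40 in NC for Col9a1, 24 in HFD and 71 in NC for Col9a2, and 12 in HFD and 78 in NC for Col9a3. Cells that held at least 3 of the 6 numbered 2 in HFD and 6 in NC, and these few held 61 of the 114 HFD counts (53.5%) and 614 of the 680 NC counts (90.3%). In HFD they were 1 cell labelled myofibroblast and 1 labelled pericyte, and in NC 2 and 4 of those labels. Each of these cells also held counts of 4 to 7 of 7 chondrocyte markers, among them Cytl1 with 15 to 1485 counts. Acta2 had 0 to 6 counts in 7 of them and 261 counts in 1 NC cell labelled pericyte. Col2a1, the main cartilage collagen, was at 0.151 CPM in HFD and 46.3 CPM in NC in the class labelled pericytes, from 1 cell in HFD and 3 cells in NC, so this value describes single cells and not the class. The 7 chondrocyte markers in the tables summed to 67.4 CPM in HFD and 905 CPM in NC in that class.

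**Figure D4:**
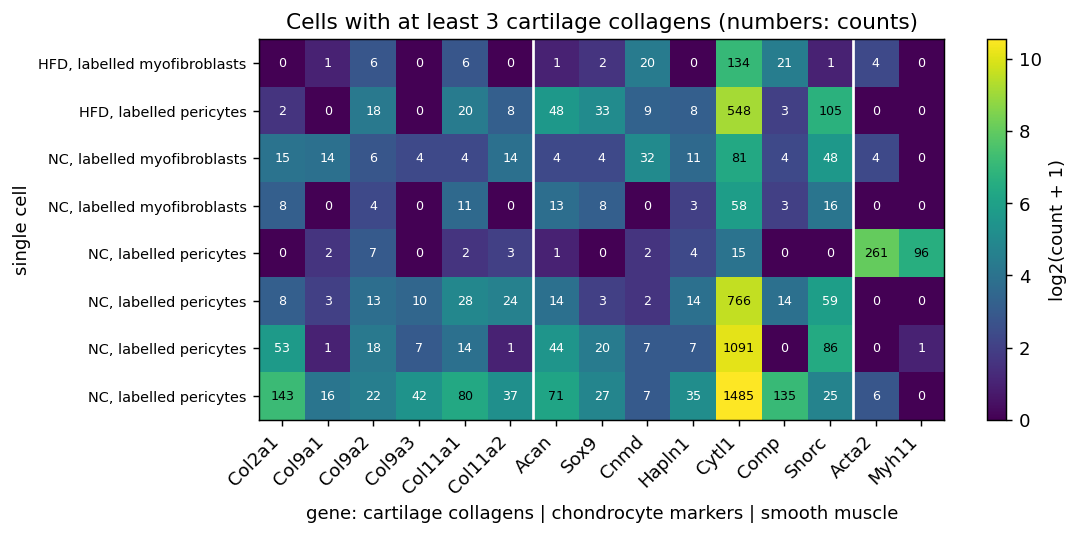
Counts (printed) of the 6 cartilage collagens, 7 chondrocyte markers and the smooth muscle genes Acta2 and Myh11 in each of the 2 HFD cells (top) and 6 NC cells that held at least 3 cartilage collagens, with colour as log2(count + 1). Cytl1 has the most counts among the markers in every one of these cells.

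In all, 11 members were measured in no comparison: the cartilage collagens other than Col2a1, the type VI chains Col6a5 and Col6a6, and 4 more. Col19a1 had 41 counts in HFD, all in 10 cells of the class labelled pericytes, and 5 in NC, all in 1 such cell. Col24a1 had 26 counts in HFD and 12 in NC, Col25a1 39 in HFD and 9 in NC, and Col22a1 22 in HFD and 69 in NC. Further collagen symbols, Col6a4, Col10a1 and Col26a1, were not analysed here.

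Genes whose products make, process, assemble or bind collagen were read the same way in pooled fibroblasts. Of 64 such genes 60 were measured, 41 below and 19 above a ratio of 1, with a median log2 ratio of −0.09. Below 1 were thus 68.3% of them, against 46.3% of all genes measured. By size 3 were lower (P4ha1, Serpinh1 and Sec24d; 5%, against 4.75% of all genes) and 1 was higher (Lum; 1.67%, against 5.45%), so the count lower by size was near that of other genes. Among 15 hydroxylases, their partners and glycosyltransferases, 12 were below 1. P4ha1, a catalytic subunit of the prolyl 4-hydroxylase that stabilises the triple helix, was at 35.5 CPM in HFD and 68.8 CPM in NC, a ratio of 0.515 (0.460 to 0.577). Its ratio was below 1 in all 5 classes. Plod1, a lysyl hydroxylase, was at 0.674 (0.580 to 0.782), P4ha2 at 0.730 (0.589 to 0.901) and P4hb, the shared beta subunit, at 0.861 (0.813 to 0.912).

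For folding and export, 5 of 7 genes were below 1. Serpinh1 (HSP47), the chaperone of procollagen, was at 310.2 CPM in HFD and 501 CPM in NC, a ratio of 0.619 (0.595 to 0.644), and below 1 in all 5 classes. Sec24d, a coat protein of the vesicles that carry procollagen, had a ratio of 0.661 (0.577 to 0.754), Kdelr2, a retrieval receptor, 0.814 (0.766 to 0.865), and Mia3 (TANGO1), the cargo receptor of procollagen, 1.01 (0.918 to 1.10). Of 6 measured propeptide proteinases and enhancers 3 were below 1: Adamts2, which trims amino propeptides, was at 0.763 (0.710 to 0.820), Pcolce at 0.943 (0.905 to 0.982) and Bmp1, the carboxyl propeptide proteinase, at 0.934 (0.788 to 1.11), while Pcolce2 was at 1.12 (1.10 to 1.15). Of 6 crosslinking enzymes 4 were below 1, with Lox at 0.735 (0.686 to 0.786), Tgm2 at 0.835 (0.775 to 0.898) and Loxl2 at 0.878 (0.770 to 1.0003), against 1.08 (1.04 to 1.13) for Loxl1.

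The 8 fibril assembly genes gave the one gene higher by size. Lum, a leucine-rich proteoglycan that spaces fibrils, was at 144 CPM in HFD and 88.6 CPM in NC, a ratio of 1.63 (1.52 to 1.75), and above 1 in all 5 classes. Sparc (0.779, 0.762 to 0.797), Dcn (0.831, 0.816 to 0.847) and Bgn (0.930, 0.912 to 0.948) were lower, and 6 of the 8 genes were below 1. Receptors and uptake genes were balanced, 3 of 8 measured below 1, with Itgb1 at 1.12 (1.08 to 1.17), Ddr1 at 1.10 (0.933 to 1.29), Ddr2 at 0.941 (0.875 to 1.01) and Itga1 at 1.06 (0.882 to 1.28). Of 10 basement membrane partners 8 were below 1, with Nid1, the linker of laminin to collagen IV, at 0.826 (0.773 to 0.883), Lamc1 at 0.836 (0.781 to 0.895), Lamb1 at 0.923 (0.873 to 0.976) and Hspg2 (perlecan) at 0.905 (0.835 to 0.980).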

How the data were processed

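The deposited log2 values, for 21014 genes in each cell, are of CPM plus a pseudocount of 1. This was read off the values, because the headers do not name the unit. Beside them the authors deposited a total per cell, an estimated count (fractional in 7.24% of HFD and 5.59% of NC cells), mitochondrial shares in percent, and class names. Per the submitters' processing notes, STAR and mm39 were used. Their versions, the strand setting and the way molecules were counted are not given in the sources used here. To recover counts, the log2 was undone and multiplied by the total. Rounding moved few nonzero values by more than 0.01: 98.85% in HFD and 98.96% in NC lay closer than that to a whole number.

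Cells below 500 genes or above 10% mitochondrial counts were dropped, 12.7% of the HFD cells and 9.71% of the NC cells. No doublet caller was run and no cell was removed as a doublet. Identifiers were matched to symbols for 20144 genes. Counts were summed per library and class (numpy 2.4.6, scipy 1.17.1, pandas 2.3.3, Python 3.11.15). The variance factor is the median, over genes seen in 0.1 to 1% of kept cells, of the sum of squared counts over the sum of counts. Ratios have exact conditional 95% Poisson intervals on effective counts. The calculation was run on simulated counts drawn with the same variance factors. That run therefore cannot show whether factors taken from rarely seen genes suit abundant genes. With 1 library per group no test was run. Members with at least 50 CPM in a class are given with all values. Up to 4 genes per pathway list are named, those whose interval bound nearest to 1 lay farthest from it. Genes whose intervals include 1 tie under this rule and were taken in the order of the list. The members and lists were chosen with earlier results of these data known. Transcript lengths, starts and overlaps come from GENCODE M21 on GRCm38, not used for any coordinate of the files. Alternatives covered cell filters, scaling by TMM and median of ratios, means per cell, top cells, count minimums, class weights, size limits and thinning.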

Additional observations from a re-analysis of the deposited data

Results flagged for a closer look

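Col18a1 had an HFD over NC ratio of 1.228 in the class labelled pericytes and of 0.845 in Gas6 fibroblasts, with counting intervals on opposite sides of 1 (1.09 to 1.39 and 0.719 to 0.991). The directions of the 2 classes were opposite, and the difference was not tested. The class labelled pericytes had 596 cells in HFD and 250 in NC.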

How the results depend on the processing

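Over 168 alternative values of the summary results, 153 stayed within their limits and 15 moved. Medians crossed 0 in 8 of the values, from 3 results. The Pi16 class was at 0.02 as reported and at −0.04 to 0.04 over the alternatives. Type IV was at −0.07 as reported, 0.09 with 4 classes weighted equally and 0.03 without the Asc1 class. The class labelled pericytes was at −0.28 as reported and at 0.04 without the 10 top cells of each gene. Leaving these cells out takes a larger share of its 250 NC than of its 596 HFD cells, and the part of this was not tested. The median log2 ratio of the collagens in pooled fibroblasts lay between −0.36 and −0.07, and 0 collagens were higher by size under every alternative run. The count lower by size, 2 as reported, was 1 with means of single-cell CPM or a minimum of 200 effective counts, 4 with a minimum of 20 or with the class labelled pericytes added, and 0 with 4 classes weighted equally, without the Asc1 class or at a size of 2-fold. It was 9 at the smaller size limit tried and 9 without the 10 cells with the most counts of each gene in each class. That setting takes a larger share of the smaller HFD fibroblast classes, and the part of this in the count was not tested. Without those cells the median of the type group called others was −0.87, against −0.25. Type VI was at −0.24 with a minimum of 20 effective counts, −0.07 (−0.068) with equal weights and −0.26 with pericytes, against −0.14. Fibrillar collagens were at −0.10 with equal weights, against −0.33, and transmembrane ones at 0.05 (0.046) with pericytes, against 0.22. Of 258 values of single members 220 stayed within their limits. In 21 values, of 9 members, the sign was the other one. Of those 9, Col15a1 alone had an interval that left out a ratio of 1 as reported, and was at 0.01 (0.0112) with pericytes, against −0.20. Col18a1 was at 0.53 with pericytes (1.45-fold), against −0.10, Col4a6 at 0.24 against −0.18, and Col8a1 at 0.23 against −0.20. Over the alternatives the log2 ratio of Col8a1 ranged from −2.65 to 0.23. Col4a3 and Col4a4 reached −0.76 and −0.17 without the top cells, Col17a1 was at −0.14 with pericytes, and Col4a5 and Col6a2 crossed 0 to −0.03 and 0.02 at their farthest. Adding pericytes joins 596 HFD to 250 NC cells. Leaving out the cells with at least 3 cartilage collagens and centring on genes of like length were chosen after seeing the data, and moved no summary result. No paired analysis was possible because each group is 1 library. Free RNA, doublets and the number of animals were not assessed, and genes under 50 effective counts allow no statement on the diet.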
